A study of Mus musculus with 2 samples.

Results

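The genes described here are 52 transcription factors of the Pax, Lhx, Nkx, Dlx, Otx, Emx, Gbx, En, Gsx, Meis, Pbx, Msx, Prrx, Pitx and Lmx families and of the sine oculis family (Six2 to Six6), homeodomain proteins outside the Hox clusters (and the related paired-domain genes Pax1 and Pax9) that pattern the brain and other embryonic tissues. They were chosen by name, as the probes whose gene name on the array equals 1 of the 52 symbols. All 52 were on the array, out of 37072 gene names in all, with 101 probes, from 1 to 6 for each gene. RNA was compared between a neurosphere sample and a sample labelled VZ/SVZ, the ventricular and subventricular zones that line the lateral ventricles and hold progenitors in the adult. Per the labels, both samples are brain cells of C57BL/6 mice aged 6 months, heterozygous for Ecrg4 and positive for β-galactosidase. The growth protocol places the cells of both samples in DMEM/F12 with bFGF, EGF and heparin, so the VZ/SVZ sample is not described there as uncultured tissue. In such medium neural progenitors grow as free-floating balls, the neurospheres. How many animals were used, how long cells were cultured and how positive cells were selected are details not given in the sources used here. Each group has 1 array, so there are no replicates and no p-values, and each difference is one between these 2 arrays.

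Regional homeodomain factors bind short AT-rich DNA sites and act as a positional code. Neural progenitors take on overlapping combinations of them along the anterior to posterior and the dorsal to ventral axis. The boundary between midbrain and hindbrain, the isthmus, forms where Otx2 anterior to it meets Gbx2 posterior to it, and the engrailed genes and Pax2 and Pax5 mark the territory around it. In the forebrain, Pax6, Emx and Lhx2 mark dorsal territory, whereas Nkx2-1, Gsx2 and Dlx mark the ganglionic eminences of the ventral side. Adult progenitors of the subventricular zone keep parts of this code according to the wall of the ventricle they sit in.

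Levels are given as the processed signal of a probe, an intensity after background subtraction. Each array was scaled to its 75th percentile, and a difference is the log2 level of VZ/SVZ less that of the neurosphere, negative where the neurosphere was higher. The value after ± is the scanner's technical error for that probe on these arrays (0.20 to 0.43 among the members) and does not cover animals or cultures. For a gene with several probes with signal, the main probe is the one with the highest mean of the log2 levels on the 2 arrays. It need not have the highest single signal, since a probe dim on 1 array has a low mean. Where a probe was not well above background on 1 array, "at least" gives a bound. It divides the bright level by the dim one, or by the lowest level that any probe well above background had on the dim array where that is higher. The neurosphere array had 61.2% of its 56599 probes well above background, the VZ/SVZ array had 66.2%, and no spot was saturated. Ecrg4, found by accession because the array carries an older name for it, gave a signal of 351 in the neurosphere and 34.0 in VZ/SVZ. All 10 neural stem and progenitor markers checked were well above background on both arrays, among them Nes, which encodes an intermediate filament of neural progenitors (2294 and 698).

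Of the 42 factors compared between the samples, 15 differed by 2-fold or more, and 27 had a difference or bound under 2-fold. A probe well above background on at least 1 array was found for 42 of the 52 genes, and 36 were measured on both arrays. Of the 42, 10 passed 2-fold towards VZ/SVZ (23.8%), against 18.7% of the 26470 genes compared. In the other direction, 5 passed 2-fold towards the neurosphere (11.9%), against 11.1% of all genes. Among genes well above background on both arrays, 9 of 36 members passed towards VZ/SVZ (25.0%), against 14.4% of 21929 genes, and 4 passed towards the neurosphere (11.1%), against 11.6%. The share towards the neurosphere thus lay near the background in both sets, and that towards VZ/SVZ lay above it by a few genes. No test was made of these shares, and nothing particular to the 52 genes is read from them. Over all genes past 2-fold, 62.7% were higher in VZ/SVZ, and 52.7% with quantile normalization in place of the 75th percentile. The members' median difference was 0.18, against 0.04 over all genes. Of the 27 genes with a difference or bound under 2-fold, 13 had values above 0 and 14 below. Among them Lhx1, Lmx1a, Nkx2-5 and Pax7 have only bounds, which give the least difference and may hide a larger one. In 5 genes, Emx2, Gsx1, Nkx2-3, Nkx6-1 and Six5, the difference was smaller than its technical error. In bulk RNA, fewer cells of a type and less RNA per cell cannot be told apart.

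**Figure D1:**
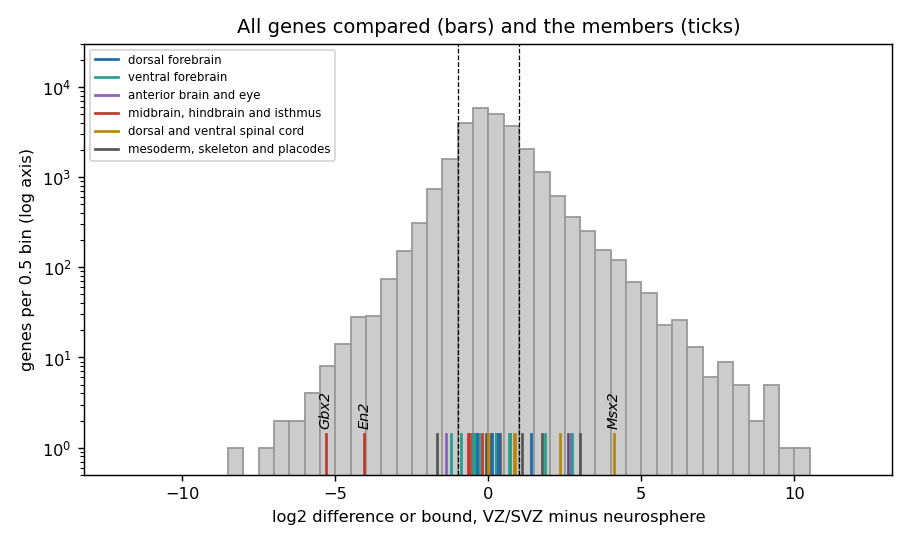
Number of genes (log axis) by log2 difference, VZ/SVZ minus neurosphere, in bins of 0.5, over 26470 genes, with a coloured tick for each of the 42 homeodomain and paired-domain genes compared and dashed lines at 2-fold. Most ticks lie between the lines, Gbx2 and En2 stand alone towards the neurosphere at -5.31 and -4.05, and Msx2 is the farthest towards VZ/SVZ at 4.09.

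The genes of the midbrain, hindbrain and isthmus held the widest differences towards the neurosphere. Gbx2, which specifies the anterior hindbrain, gave a signal of 221 in the neurosphere and 1.24 in VZ/SVZ, where it was not well above background. It was thus at least 39.8-fold higher in the neurosphere (log2 bound -5.31), by its probe at chr1:91825013-91825072 (mm9). En2, an engrailed gene of the midbrain and cerebellum, gave 1070.4 in the neurosphere and 69.1 in VZ/SVZ, a 16.5-fold difference (-4.05 ± 0.21; chr5:28498468-28498528). Gbx2 was thus dim in VZ/SVZ, whereas En2 was well above background on both arrays. Of all genes compared, 0.21% had a difference or bound at or below that of En2. By their main probes, the other genes compared in the group lay within 2-fold, except Lmx1a, which has only a bound. Gbx1, a paralog of Gbx2 with a later role in the spinal cord and forebrain, gave 141 and 94.9 (-0.67 ± 0.21). Lmx1b, a LIM-homeodomain factor of dopaminergic and serotonergic neurons, gave 427 and 291 (-0.65 ± 0.20), and its other probes lay at -0.45 and -1.31. Pax2, an early gene of the isthmus, gave 135 and 100.1 by its main probe (-0.53 ± 0.21). Its probes ran from -0.53 to 1.22 and so disagreed in sign. Pax5, its partner at the isthmus, gave 58.8 and 54.2 (-0.21 ± 0.21), with another probe at 0.19. Lmx1a, a roof plate factor, was dim in the neurosphere (2.29) and gave 7.19 in VZ/SVZ, at least 1.30-fold. En1, the paralog of En2, and Pax8 were dim on both arrays, that is, not well above background. Of the 7 genes compared in the group, 2 passed 2-fold towards the neurosphere and 0 towards VZ/SVZ, against 11.1% and 18.7% of all genes, and the median difference was -0.65. Where both arrays must be well above background, 1 passed towards the neurosphere, since Gbx2 then has no value.

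**Figure D2:**
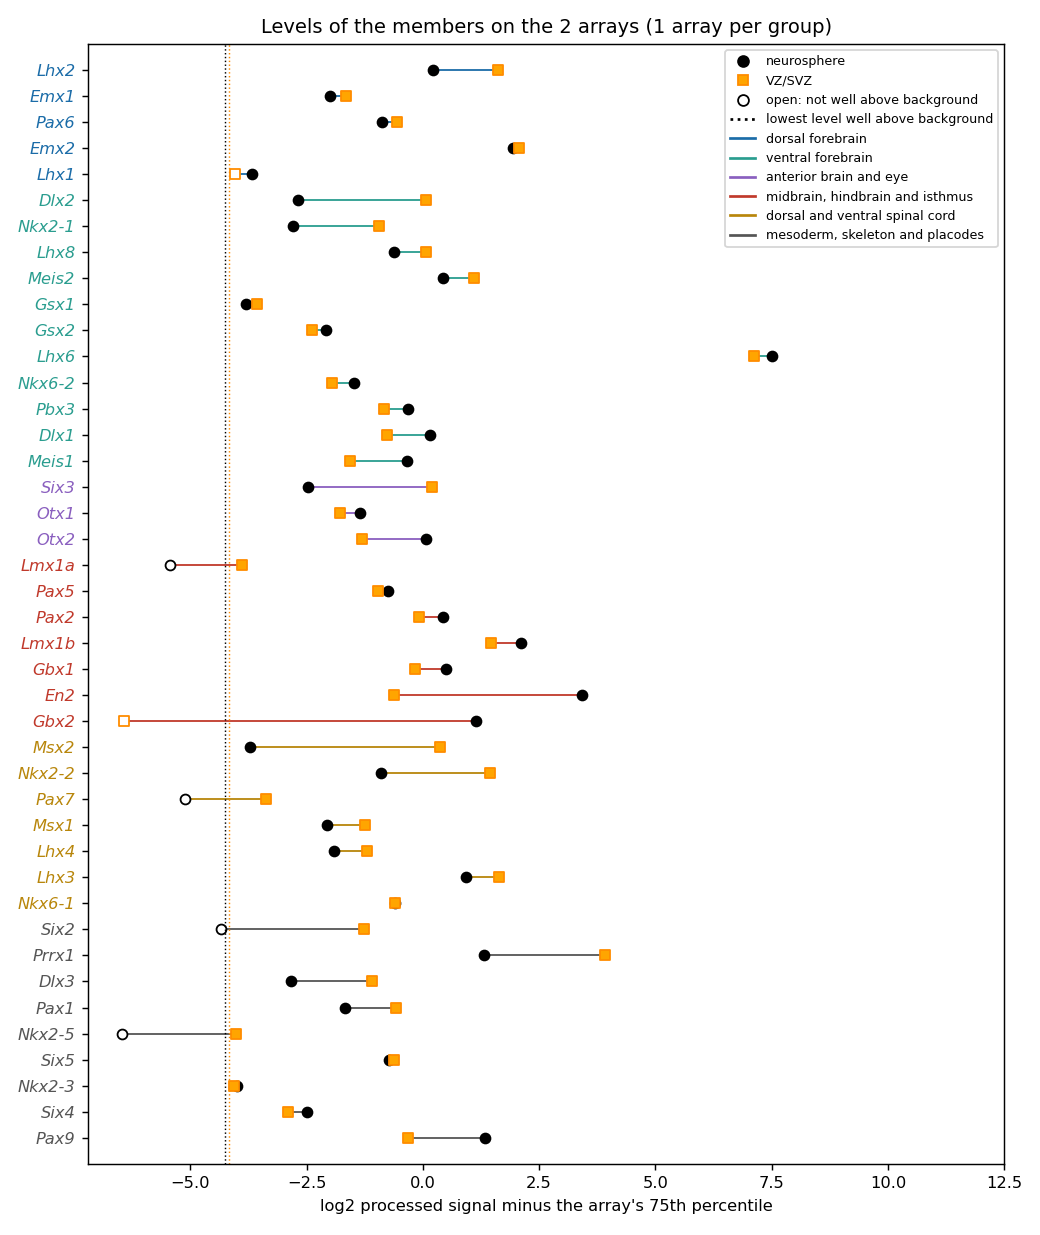
Log2 processed signal minus the array's 75th percentile (horizontal axis) for the probe of each of the 42 genes, with the neurosphere as circles and VZ/SVZ as squares, open where not well above background, and 1 array per group. The open square of Gbx2 lies left of the dotted lines, which mark the lowest level well above background on each array, with its circle far to the right, whereas Msx2, Six2 and Dlx2 have their squares far right of their circles. Colours give roles, and positions of different genes are not comparable, since probes differ in sensitivity.

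The bases before the start sites are shown for 6 genes, the 3 with the lowest and the 3 with the highest differences among members with a listed promoter. Otx2, chosen by this rule, differed by only 2.59-fold. En2 is not shown. Each line holds the 250 bases before the start, from RefSeq on GRCm38.p6, in the direction of the gene. Capitals mark TAATTA, a core site of many homeodomain proteins and its own reverse complement, and GGGCGG, the GC box bound by Sp factors, read on both strands. Gbx2 (chr1:89931177-89931426, minus strand), Pax9 (chr12:56695221-56695470, plus strand) and Otx2 (chr14:48665110-48665359, minus strand) were higher in the neurosphere. Msx2 (chr13:53472781-53473030, minus strand), Six2 (chr17:85688255-85688504, minus strand) and Dlx2 (chr2:71546755-71547004, minus strand) were higher in VZ/SVZ.
Gbx2: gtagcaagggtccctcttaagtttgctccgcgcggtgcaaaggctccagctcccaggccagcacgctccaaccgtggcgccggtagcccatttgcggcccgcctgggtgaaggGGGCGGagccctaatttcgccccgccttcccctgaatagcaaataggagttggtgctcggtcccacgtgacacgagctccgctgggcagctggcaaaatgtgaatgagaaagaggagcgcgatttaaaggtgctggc
Pax9: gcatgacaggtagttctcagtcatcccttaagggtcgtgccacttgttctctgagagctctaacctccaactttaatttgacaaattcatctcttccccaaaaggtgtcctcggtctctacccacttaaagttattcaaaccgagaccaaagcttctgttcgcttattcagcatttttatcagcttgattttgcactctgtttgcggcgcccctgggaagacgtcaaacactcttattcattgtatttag
Otx2: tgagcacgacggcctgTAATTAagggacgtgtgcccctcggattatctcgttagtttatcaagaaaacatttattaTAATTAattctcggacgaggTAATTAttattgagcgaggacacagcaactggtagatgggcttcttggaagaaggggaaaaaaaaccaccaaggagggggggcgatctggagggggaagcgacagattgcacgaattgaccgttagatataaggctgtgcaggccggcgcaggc
Msx2: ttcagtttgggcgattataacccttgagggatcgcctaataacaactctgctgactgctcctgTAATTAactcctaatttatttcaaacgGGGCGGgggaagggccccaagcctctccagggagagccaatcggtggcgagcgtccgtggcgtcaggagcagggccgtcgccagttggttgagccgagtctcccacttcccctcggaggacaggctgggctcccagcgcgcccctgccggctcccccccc
Six2: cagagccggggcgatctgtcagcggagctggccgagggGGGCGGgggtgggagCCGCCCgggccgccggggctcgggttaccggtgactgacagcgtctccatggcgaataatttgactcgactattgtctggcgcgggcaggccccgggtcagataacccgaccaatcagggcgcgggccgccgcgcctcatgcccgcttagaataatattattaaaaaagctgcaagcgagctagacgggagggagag
Dlx2: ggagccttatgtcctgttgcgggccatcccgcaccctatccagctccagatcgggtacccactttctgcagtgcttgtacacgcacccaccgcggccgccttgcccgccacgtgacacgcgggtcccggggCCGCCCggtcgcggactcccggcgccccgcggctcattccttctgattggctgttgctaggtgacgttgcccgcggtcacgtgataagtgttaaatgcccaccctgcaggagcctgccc
The Otx2 line is the third of 4 starts listed for the gene and the one with the most TAATTA matches, 3. GGGCGG occurred in the Gbx2, Msx2 and Dlx2 windows once each and in the Six2 window 2 times. TAATTA occurred in the Otx2 and Msx2 windows. The letters CG, the site of DNA methylation in mammals, occurred 18 times for Gbx2, 7 for Pax9, 14 for Otx2, 16 for Msx2, 26 for Six2 and 24 for Dlx2, against a median of 6 over 32851 promoters. The other starts of Otx2 held 6, 8 and 9, so the one shown has the most. Promoters were listed for 41 of the 52 genes, 52 in all, with a median of 14.5 CG. GGGCGG occurred in 53.8% of these and in 32.7% of all promoters, and TAATTA in 7.69% and 4.84%. TAATTA is present in some and missing from other windows on both sides, and a match describes the letters only.

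Anterior brain and eye genes split. Six3, which the anterior forebrain and eye need to form, gave 18.0 in the neurosphere and 121 in VZ/SVZ, 6.28-fold higher in VZ/SVZ (2.65 ± 0.23; chr17:86023349-86023408). A further Six3 probe lay on the same side, with 6.75 and 33.7 (2.22 ± 0.32), and the last was dim on both arrays. Otx2, needed for forebrain and midbrain and kept in the choroid plexus, gave 104 and 43.0, 2.59-fold higher in the neurosphere (-1.37 ± 0.21). Its other probes gave 43.8 and 13.0 (-1.85 ± 0.25), and 11.1 and 8.78 (-0.43 ± 0.35), so all 3 were higher in the neurosphere. Otx1, its paralog, gave 39.1 and 31.1 (-0.43 ± 0.22). Six6, a paralog of Six3 in eye and pituitary, was dim on both. Otx2 therefore lay on the same side as Gbx2, although in the embryo these genes meet at the isthmus from opposite sides. With background corrected by normexp, Six3 stayed past 2-fold at 1.15, whereas Otx2 was at -0.72.

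By their main probes, 4 of the 5 dorsal forebrain genes compared lay within 2-fold, Lhx1 among them by a bound. Past 2-fold, 1 lay towards VZ/SVZ and 0 towards the neurosphere, against 18.7% and 11.1% of all genes. Pax6, counted within 2-fold, depended on the probe, as given in the next paragraph. Lhx2, a LIM-homeodomain factor that selects cortical identity, gave 116 in the neurosphere and 326 in VZ/SVZ, 2.63-fold higher in VZ/SVZ (1.39 ± 0.20). Emx2, a gene of the cortical primordium, gave 382 and 446 (0.13 ± 0.20), and its paralog Emx1 gave 25.0 and 34.0 (0.35 ± 0.22). Lhx1, a LIM gene of several neuron classes, gave 7.79 and a dim 6.41, at least 1.30-fold higher in the neurosphere. Lhx5 and Lhx9, LIM genes of forebrain neurons, were dim on both.

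Pax6, the dorsal forebrain and eye factor that adult progenitors of the subventricular zone also use, depended on the probe. Its main probe, at chr2:105523175-105523234 and designed on an Ensembl transcript, gave 54.3 in the neurosphere and 72.3 in VZ/SVZ (0.32 ± 0.21). Of the 4 other probes with signal, all designed on RefSeq transcripts, every one was lower in VZ/SVZ. The probe at chr2:105537277-105537336 gave 84.7 and 25.0, 3.62-fold higher in the neurosphere (-1.86 ± 0.22). The probe over chr2:105524106-105525093, a span longer than its 60 bases, gave 85.6 and 21.1 (-2.12 ± 0.23). The other probes gave 37.2 and 23.8 (-0.74 ± 0.22), and 9.1 and a dim 4.94, at least 1.64-fold. Among probes with a RefSeq mRNA accession alone, the one with the highest mean level put Pax6 at -1.86, past 2-fold. The probe with the highest level on either array put it at -2.12, and the median over its probes at -0.74. The RefSeq and highest-level choices were added after the values were seen. Which transcripts each probe detects was not tested.

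**Figure D3:**
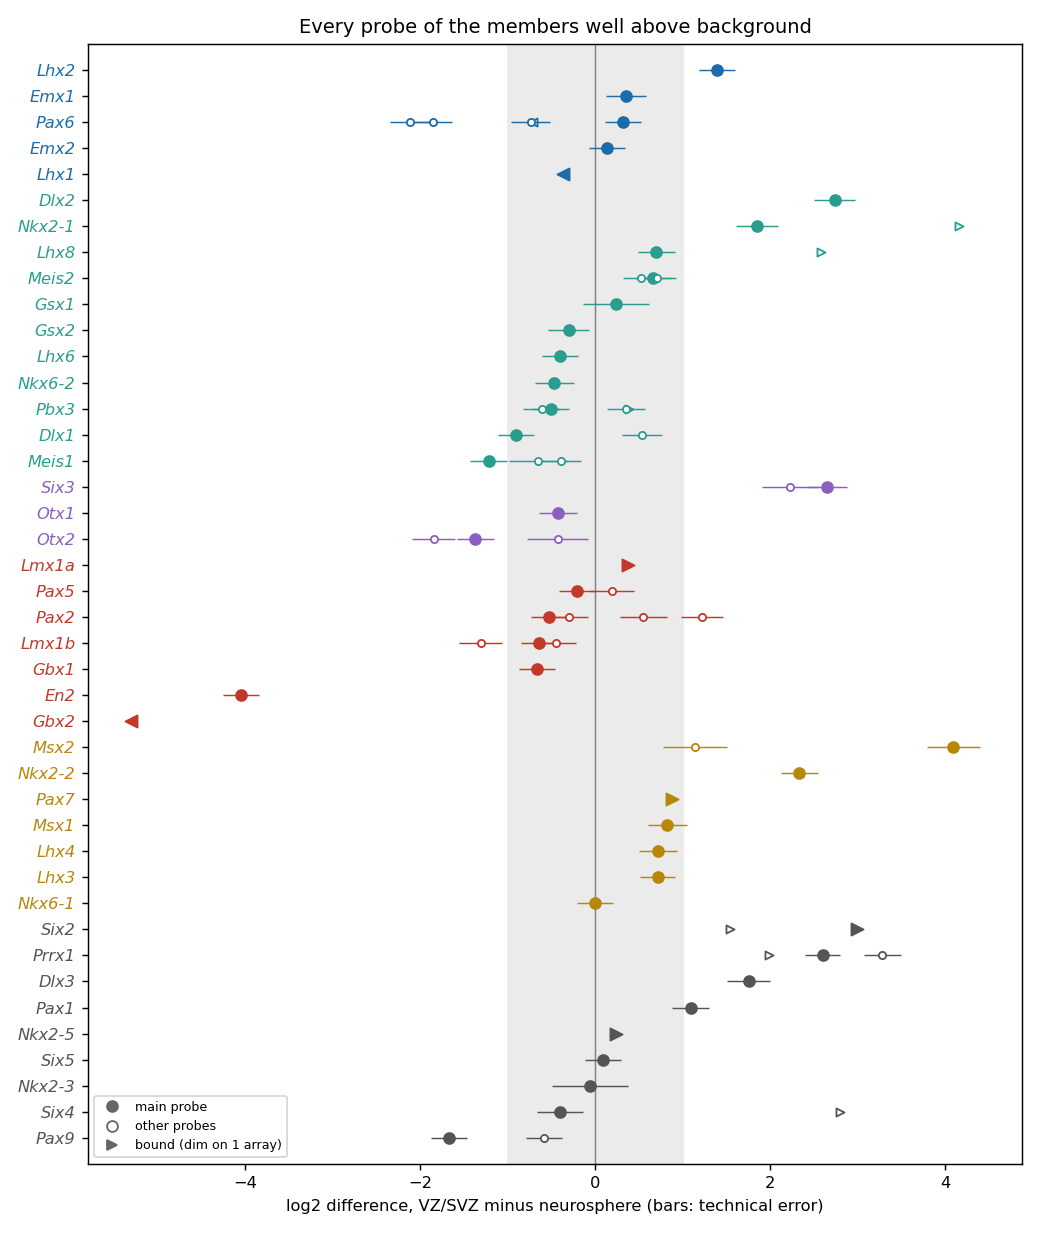
Log2 difference, VZ/SVZ minus neurosphere, of each of the 71 probes with signal on either array, with bars for the technical error, filled symbols for the main probe of a gene, open symbols for its other probes, triangles for bounds and grey for the zone within 2-fold. The open symbols of Pax6 lie left of 0 and its filled one right of 0, whereas all probes of Prrx1, Six3 and Nkx2-1 lie on the VZ/SVZ side.

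Ventral forebrain genes included Dlx2 and Nkx2-1 on the VZ/SVZ side and Meis1 on the neurosphere side, with 8 of 11 compared within 2-fold. The shares past 2-fold were 18.2% towards VZ/SVZ and 9.09% towards the neurosphere. They lay near those of all genes, 18.7% and 11.1%. Dlx2, which drives progenitors of the ganglionic eminences towards GABAergic neurons, gave 15.5 in the neurosphere and 110.4 in VZ/SVZ, 6.66-fold (2.74 ± 0.23). Nkx2-1, which specifies the medial ganglionic eminence, gave 14.4 and 55.5 by its main probe, 3.60-fold (1.85 ± 0.24). Its other probe was dim in the neurosphere at 1.19 and gave 99.2 in VZ/SVZ, at least 17.9-fold. Both Nkx2-1 probes were thus higher in VZ/SVZ, by amounts that depended on the probe. Its value with the highest-level probe is the bound of 4.16.

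Factors that act before or after Nkx2-1 and Dlx2 lay within 2-fold by their main probes or were dim on both arrays. Lhx8, a factor of cholinergic neurons, gave 64.3 and 111 (0.70 ± 0.21), while its other probe was dim in the neurosphere (2.03) and gave 33.0 in VZ/SVZ, at least 5.95-fold. Lhx6, a factor of cortical interneurons, gave 18197 and 14688 on 1 probe (-0.40 ± 0.20) and was dim on both arrays on the other (1.06 and 4.11). The probes of Lhx6 thus do not match in whether the gene had signal at all. Dlx1, the neighbour and paralog of Dlx2, gave 110 and 62.5 by its main probe (-0.91 ± 0.21) and 17.6 and 27.2 by the other (0.53 ± 0.23), with opposite signs. Dlx5 and Dlx6, which follow Dlx1 and Dlx2 in these cells, were dim on both. Gsx1 and Gsx2, factors of ventral progenitors upstream of Dlx genes, gave 7.11 and 8.94 (0.24 ± 0.37), and 23.4 and 20.2 (-0.31 ± 0.23). Nkx6-2, a factor of ventral progenitors and oligodendrocytes, gave 35.5 and 27.4 (-0.47 ± 0.22).

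The Meis and Pbx proteins form complexes with other homeodomain factors on DNA. Meis1 gave 78.0 in the neurosphere and 35.7 in VZ/SVZ, 2.33-fold higher in the neurosphere (-1.22 ± 0.21), with its other probes at -0.65 and -0.40. Meis2, also a marker of lateral ganglionic eminence neurons, gave 135 and 228 (0.66 ± 0.20), and its 3 probes with signal ran from 0.52 to 0.71. The paralogs thus differed in sign on every probe with signal. Pbx3 gave 79.7 and 59.7 (-0.51 ± 0.21), and its 4 probes ran from -0.61 to 0.39. Meis1 was at -0.66 with normexp and at -0.65 with the median over probes, within 2-fold.

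In the group of dorsal and ventral spinal cord genes, Msx2 and Nkx2-2 were past 2-fold, both towards VZ/SVZ, and 0 of 7 compared were past it towards the neurosphere, against 18.7% and 11.1% of all genes. Msx2, a target of BMP signalling in the dorsal midline, neural crest and skull, gave 7.5 in the neurosphere and 137 in VZ/SVZ, 17.0-fold (4.09 ± 0.30; chr13:53562318-53562377). Its other probe gave 7.42 and 17.4 (1.14 ± 0.37), so both were higher in VZ/SVZ but by different amounts. Nkx2-2, a factor of ventral progenitors and of oligodendrocyte precursors, gave 53.3 and 286, 5.04-fold (2.33 ± 0.21), and its other probe was dim on both arrays. Bmp4, a ligand that induces Msx genes elsewhere, gave 12.2 and 501 (5.26 ± 0.25). Whether Bmp4 has a part in the Msx2 difference was not tested. Msx1, the paralog of Msx2, gave 23.7 and 44.8 (0.82 ± 0.22). Nkx6-1, a ventral factor that overlaps Nkx2-2 territory, gave 65.8 and 69.9 (-0.01 ± 0.21). Lhx3 and Lhx4, paralogs of motor neurons and pituitary, gave 188 and 329 (0.71 ± 0.20), and 26.4 and 46.2 (0.71 ± 0.22). Each had a further probe dim on both arrays. Pax7, a dorsal neural tube and muscle factor, was dim in the neurosphere (2.88) and gave 10.2 in VZ/SVZ, at least 1.84-fold. Pax3, its paralog, was dim on both. With normexp Msx2 was at 1.52.

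Genes with main roles in mesoderm, skeleton or placodes were higher in VZ/SVZ in 4 of 9 compared and higher in the neurosphere in 1, against 18.7% and 11.1% of all genes. With normexp, 1 was higher in VZ/SVZ. Prrx1, a factor of limb and craniofacial mesenchyme, gave 247 in the neurosphere and 1597 in VZ/SVZ, 6.05-fold (2.60 ± 0.20; chr1:165187974-165188033). Its other probes gave 26.8 and 278 (3.28 ± 0.22), and a dim 3.70 and 22, at least 3.96-fold. All 3 Prrx1 probes were thus higher in VZ/SVZ. Six2, a factor of kidney progenitors and craniofacial mesenchyme, was dim in the neurosphere (4.93) and gave 44.1 in VZ/SVZ, at least 7.95-fold, and its other probe gave at least 2.91-fold. Dlx3, a gene of placenta, skin and branchial arches, gave 13.9 and 49.9, 3.37-fold (1.75 ± 0.24). Pax1, a factor of the sclerotome, gave 31.2 and 70.8 on 1 probe, 2.13-fold (1.09 ± 0.21), and was dim on the other, which is the one with a RefSeq accession. Pax9, which acts with Pax1 in the sclerotome and in tooth and palate, went the other way, with 252 and 84.4, 3.19-fold higher in the neurosphere (-1.67 ± 0.21). Its other probe gave 67.9 and 48.1 (-0.59 ± 0.21).

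Six4, a paralog active in placodes and muscle, gave 17.6 and 14.2 by its main probe (-0.40 ± 0.27). Another of its probes was dim in the neurosphere at 1.11 and gave 38.5 in VZ/SVZ, at least 6.94-fold, so its direction depended on the probe. With the highest-level probe Six4 was at 2.80, past 2-fold. Six5 gave 60.4 and 68.7 (0.09 ± 0.21). The gut and spleen factor Nkx2-3 gave 6.18 and 6.32 (-0.06 ± 0.43), and the heart factor Nkx2-5 was dim in the neurosphere (1.12) and gave 6.54 in VZ/SVZ, at least 1.18-fold. Pitx1, a hindlimb factor, and Dlx4, a Dlx gene of placenta and arches, were dim on both. With normexp, Six2 (0.62), Dlx3 (0.51) and Pax1 (0.50) were within 2-fold, while Prrx1 kept 2.39.

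Markers of other cell types also differed between the samples. Of 12 fibroblast markers, 5 were well above background in the neurosphere and 12 in VZ/SVZ, and their summed signal was 356 and 12025. Col3a1 (at least 526-fold, with another probe at 0.91) and Dcn (at least 413-fold) were higher in VZ/SVZ. Foxc1, at -1.32, was higher in the neurosphere. Of 8 mural cell markers, 5 and 8 were well above background, with summed signals of 7042 and 8320.0. The sums are mostly Acta2 (6756 and 5741), whose probes ran from -0.33 to 4.31, so they depend on the probe taken. Of the 8, 6 passed 2-fold towards VZ/SVZ, with a median difference of 2.81, among them Pdgfrb by at least 176-fold. Of 8 endothelial markers, 4 and 7 were, with 219 and 878, and 6 passed 2-fold towards VZ/SVZ, among them Cdh5 by at least 72.9-fold. Flt1 went the other way, with 186 and 22.6 (-3.13). Of 10 neuron markers, 5 and 8 were, with 10298 and 7273, sums that are mostly Map2 and Snap25. The probes of Snap25 ran from -0.45 to 2.49, and Rbfox3 and Slc17a7 were dim on both arrays. Of the 8 neuron markers compared, 5 passed 2-fold towards VZ/SVZ, among them Nefm (at least 77.9-fold) and Thy1 (48.5-fold), and Map2 passed towards the neurosphere (-3.35). Their median difference was 1.53. Of 8 choroid plexus markers, 3 and 4 were, with 124 and 862, and Ttr, Kl, Kcne2 and Slc4a5 were dim on both, and that list includes Otx2 itself. The sum is mostly Otx2 (104) in the neurosphere and Aqp1 (771) in VZ/SVZ. Of the 4 compared, Otx2 passed 2-fold towards the neurosphere and 3 towards VZ/SVZ. These were Aqp1 (123-fold), Clic6 (at least 4.37-fold) and Folr1 (2.18-fold, with another probe at -0.83). Of 8 ependymal markers, 6 and 7 were, with 972 and 263, and 3 passed 2-fold towards the neurosphere, Ccdc153 (at least 49.0-fold), Dynlrb2 (7.45-fold) and Foxj1 (4.11-fold). The other 5 lay above 0 and within 2-fold, and the median difference was 0.25. Of 8 microglia markers, 2 and 3 were, with 1587 and 1920.0, and C1qa, Cx3cr1, P2ry12 and Tyrobp were dim on both. The summed signal of the 10 neural stem and progenitor markers was 67789 and 37204, sums that are mostly Fabp7 (42131 and 21259). Of these 10, 4 passed 2-fold towards the neurosphere and 1, Prom1 (1.03), towards VZ/SVZ, with a median difference of -0.64. The part of these cells in the differences of Prrx1, Six2, Msx2 and the other genes was not tested.

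Several of the genes are neighbours on a chromosome, and neighbours did not always lie on the same side. Six2 and Six3, whose probes are 58.9 kb apart on chromosome 17 (mm9), were both higher in VZ/SVZ. Pax1 and Nkx2-2, 210.0 kb apart on chromosome 2, were also both higher there. Pax9 and Nkx2-1, 177 kb apart on chromosome 12, lay on opposite sides, at -1.67 and 1.85. Dlx1 and Dlx2, 14.1 kb apart on chromosome 2, had opposite signs by their main probes. Dlx3 was higher in VZ/SVZ, whereas Dlx4, 15.4 kb away on chromosome 11, was dim on both arrays. Dlx5 and Dlx6, 12.9 kb apart on chromosome 6, were both dim. Six4 and Six6 lie 168 kb apart on chromosome 12, and Six6 was dim. The 7 pairs, those with probes within 300 kb, are given as a description.

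Probes of the same gene and the background correction both changed values within these arrays. Each of the 101 probes is a single spot. Of 17 genes with several probes above background, 6 had probes of both signs, Dlx1, Pax2, Pax5, Pax6, Pbx3 and Six4, and none had probes past 2-fold in opposite directions. Between the probes of a gene, the SD had a median of 0.76 on the log2 scale, larger than the technical error of any member. Of the 15 genes past 2-fold, 10 stayed past it in the same direction under normexp, and Otx2, Meis1, Pax1, Dlx3 and Six2 did not. Normexp, which adds an offset of 50 to signals, also brought Gbx2 to -2.40, En2 to -3.19, Dlx2 to 1.15, Nkx2-2 to 1.57 and Pax9 to -1.13. The main probe was picked again from the normexp levels, so a change can also come from another probe of the gene. Six4, not among the 15, went from -0.40 to 0.67 with normexp. Quantile normalization left Pax1 within 2-fold as well. None of the 15 changed sign under the alternatives in which it had a value.

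**Figure D4:**
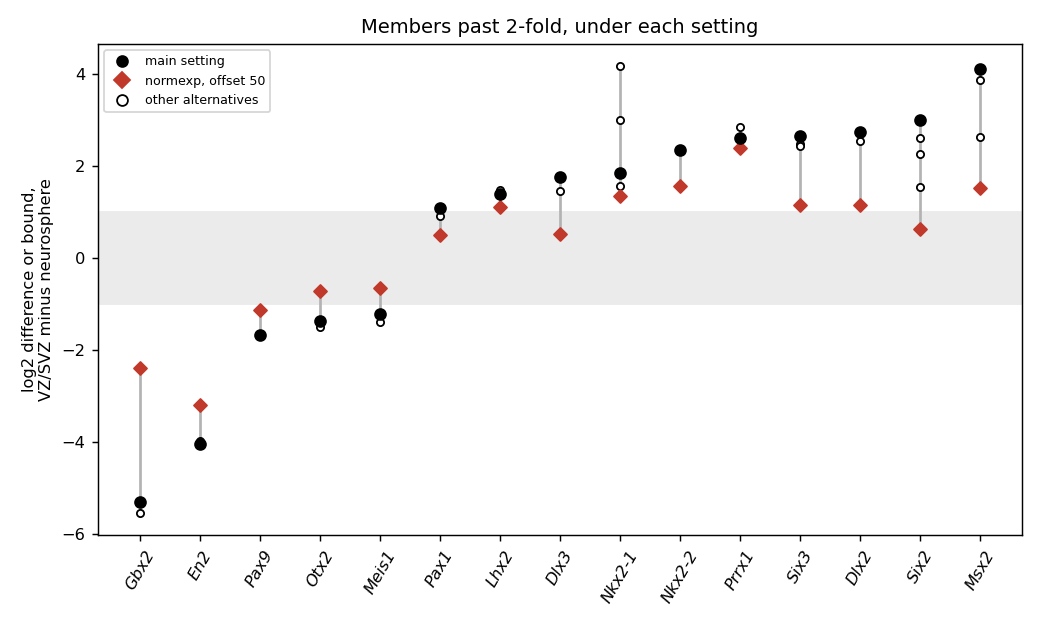
Log2 difference or bound, VZ/SVZ minus neurosphere, of the 15 genes past 2-fold, with the main setting as black circles, normexp as red diamonds, the other alternatives as open circles and grey for the zone within 2-fold. The diamonds lie nearest to 0 for most genes and inside the grey zone for Otx2, Meis1, Pax1, Dlx3 and Six2, whereas Prrx1 and En2 stay at 2.39 and -3.19.

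Related homeobox genes were counted in the same way. Of 52 other homeobox genes, 41 were compared, of which 10 passed 2-fold towards VZ/SVZ and 4 towards the neurosphere, against 18.7% and 11.1% of all genes, and the median was 0.27. With normexp 4 passed towards VZ/SVZ, and among genes well above background on both arrays 2 passed towards the neurosphere. Isl2, a motor neuron factor, gave 120 in the neurosphere and a dim 2.02 in VZ/SVZ, at least 21.5-fold, and Barhl2, Prox1 and Onecut1 were also higher there. Alx4, a factor of craniofacial mesenchyme, was dim in the neurosphere and higher in VZ/SVZ by at least 5.35-fold. Zfhx4, a zinc finger homeobox gene, gave 14.7 and 62.7.

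Cofactors that work with these proteins were compared in all 22 cases, with 4 past 2-fold towards VZ/SVZ, 6 towards the neurosphere and a median of -0.04, against 18.7% and 11.1% of all genes. With normexp the counts were 2 and 3, and with both arrays well above background 2 passed towards VZ/SVZ. Dach1, a partner of the sine oculis family, was dim in the neurosphere (5.65) and gave 412 in VZ/SVZ, at least 68.3-fold. Ldb2, a LIM-binding adaptor, gave a dim 1.17 and 52.8, at least 9.52-fold. Tle1 differed by 2.53-fold and Lmo1 by 2.46-fold in the same direction. Towards the neurosphere, Eya2 and Eya4, phosphatase partners of the same family, differed by 7.07-fold and 2.80-fold, Tle6 by 3.51-fold and Lmo3 by 4.04-fold, Lmo3 with another probe at 0.77.

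Among patterning signals and other regional factors, 14 of 34 compared passed 2-fold towards VZ/SVZ and 3 towards the neurosphere, against 18.7% and 11.1% of all genes, and the median was 0.33. Towards VZ/SVZ, 5 passed with normexp and 8 among genes well above background on both arrays. Bmp4 was higher in VZ/SVZ by 38.4-fold, Gata2 by 19.4-fold (4.28 ± 0.27) and Foxd1 by 18.2-fold or more. Foxa1, a floor plate factor, gave 82.6 in the neurosphere and a dim 1.52 in VZ/SVZ, at least 14.9-fold. Zic5 (-1.96 ± 0.21) and Tcf7l2 (-1.16 ± 0.20) were the others higher in the neurosphere, Tcf7l2 with probes up to 0.11.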

How the data were processed

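RNA was Cy3-labelled and each of 2 samples went on its own 1-colour Agilent array, per the labels. Spots were read with Agilent Feature Extraction, whose version is 11.5.1.1 per the file headers and 9.1 in the submitters' processing notes. Per the file headers, the intensity used is that after subtraction of background, with no scaling from array to array. The value table the authors deposited holds the same intensity values (median ratio 1 to those of the scanner). Probe coordinates are mm9, per the file headers, and exon and UTR annotation was not used here.

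Control spots (3671) and spots the scanner software marked as outliers (79 and 142) were left out. Of its probes with signal (well above background on either array), a gene took the one with the highest mean log2 level over both arrays, with genes named by the array's gene name. No test was possible with 1 array a group, so genes were counted at 2-fold. Steps were checked on simulated arrays. Normexp used limma 3.58.1 in R 4.3.3.

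The members and lists were chosen with earlier results of these data known. Every member with signal is named. Of each list of other genes up to 4 past 2-fold in each direction are named, and of the cell type markers those dim on both arrays and up to 2 with the largest difference. Foxc1, Ecrg4 and further markers, such as those that carry a summed signal, were added with their values known. Some genes of these lists are not reported here. Of 74 member probes with a RefSeq accession, 73 were in RefSeq's table (GRCm38.p6), all under the member's symbol.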

Additional observations from a re-analysis of the deposited data

How the results depend on the processing

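The median of the members was 0.18, and it was 0.0565 with normexp, -0.0102 with quantile normalization, 0.17 centred on the median of probes well above background on both arrays and 0.11 among genes well above background on both, so its sign depends on the normalization. At 1.5-fold in place of 2-fold, 16 members passed towards VZ/SVZ and 8 towards the neurosphere, and at 4-fold 6 and 2. Shares over all genes at these cuts are not given here, so nothing about the members is read from these counts. With normexp 3 members passed 2-fold towards the neurosphere and 7 towards VZ/SVZ. Over all genes, 4939 passed towards VZ/SVZ and 2932 towards the neurosphere, and these counts were 1470 and 1269 with normexp. They were 3173 and 2543 over 21971 genes when a gene's probe was picked only from those well above background on both arrays. That set differs from the 21929 genes whose main probe was well above background on both. With RefSeq mRNA probes, an alternative chosen after seeing the data, they were 2555 and 2262, where fewer genes (16026) were compared. The share of calls towards VZ/SVZ was 62.7%, and 52.7% with quantile normalization. Gbx2 and Six2 have no value where both arrays must be bright, and Pax1 none with RefSeq mRNA probes. Pax6 (-1.86) and Six4 (2.80) passed 2-fold with RefSeq mRNA probes. They also did with the probe of the highest level on either array (-2.12 and 2.80), likewise added later. That choice put 11 members towards VZ/SVZ and 6 towards the neurosphere, against 5074 and 3019 of 26470 genes. With the median over probes, Lhx8 (1.64) and Six4 (1.20) passed 2-fold. No called member reversed. Signal over background limits differences below signals of 5.20 in the neurosphere and 5.93 in VZ/SVZ. No paired analysis was possible because each group has 1 sample, and none could be left out. The causes of these changes were not tested.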
